A study of Mus musculus with 72 samples.

Results

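To investigate how the receptor chains for interferons and interleukin-10 were expressed in the postnatal Ts1Cje brain, all probe sets assigned by the platform annotation to 1 of 5 genes alone were taken, regardless of their values. The genes were *Ifnar1*, *Ifnar2*, *Ifngr2* and *Il10rb*, which lie in the MMU16 segment that Ts1Cje mice carry in triplicate, and *Ifngr1*, which lies on MMU10 and is disomic. They gave 10 of the 45101 probe sets of the array and 5 of the 18194 genes with a value. Expression was measured on 72 Affymetrix mouse arrays hybridised with total RNA from 3 brain regions (cerebral cortex, hippocampus and cerebellum) of Ts1Cje mice and disomic littermates, labelled wildtype. Mice were taken at 4 ages after birth, on day 1 (P1), day 15 (P15), day 30 (P30) and day 84 (P84), with 3 arrays in each of 24 groups. The P1 mice are described as older by part of a day in the study's methods. Ts1Cje mice carry the extra MMU16 segment on a translocation chromosome that also lacks a small telomeric part of MMU12, came from Ts1Cje males mated with C57BL/6 females, and are labelled female as are the disomic mice. Neither genotype was treated. Dissected regions are mixtures of cells, so fewer cells of a type and less RNA per cell cannot be told apart in any value below.

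Type I interferons signal through a receptor of 2 chains, IFNAR1 and IFNAR2. Interferon gamma uses IFNGR1, which binds the ligand, together with IFNGR2, which is needed for signalling. IL10RB is the shared second chain of the receptors for interleukin-10, interleukin-22 and the type III interferons. The chains carry no kinase of their own and rely on the Janus kinases JAK1, JAK2 and TYK2, which phosphorylate STAT proteins that enter the nucleus and switch on interferon-stimulated genes. In the brain these receptors are known from microglia, astrocytes, neurons and endothelium.

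The 4 triplicated genes lie close together on MMU16 in the order *Ifnar2*, *Il10rb*, *Ifnar1* and *Ifngr2*, with A930006K02Rik between the middle pair. The 250 bases before the start of each gene are shown because these 4 genes form 1 cluster, of which 3 promoters could be matched, and because *Ifngr1* lies outside it. The sequences are those of RefSeq on build GRCm38.p6, plus strand, which is the strand of each gene, at chr16:91372533-91372782 for *Ifnar2*, chr16:91484965-91485214 for *Ifnar1*, chr16:91546809-91547058 for *Ifngr2* and chr10:19591699-19591948 for *Ifngr1*. Capitals mark the GC box, GGGCGG on either strand, or in *Ifnar2*, which has none, the 1 match to the interferon gamma activated site, TTCNNNGAA.
Ifnar2: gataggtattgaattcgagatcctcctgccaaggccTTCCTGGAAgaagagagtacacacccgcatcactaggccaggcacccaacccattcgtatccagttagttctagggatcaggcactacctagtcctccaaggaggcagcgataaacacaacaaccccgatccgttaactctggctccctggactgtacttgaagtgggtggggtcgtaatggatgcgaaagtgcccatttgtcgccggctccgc
Ifnar1: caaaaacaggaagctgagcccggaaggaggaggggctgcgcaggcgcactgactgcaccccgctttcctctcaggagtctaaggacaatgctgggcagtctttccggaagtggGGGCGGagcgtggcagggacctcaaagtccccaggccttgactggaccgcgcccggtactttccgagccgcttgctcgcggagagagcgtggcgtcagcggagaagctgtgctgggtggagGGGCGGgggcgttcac
Ifngr2: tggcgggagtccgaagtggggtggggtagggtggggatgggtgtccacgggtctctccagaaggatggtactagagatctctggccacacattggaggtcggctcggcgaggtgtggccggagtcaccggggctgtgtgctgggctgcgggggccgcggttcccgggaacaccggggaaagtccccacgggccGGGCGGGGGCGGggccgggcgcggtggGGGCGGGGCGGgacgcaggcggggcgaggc
Ifngr1: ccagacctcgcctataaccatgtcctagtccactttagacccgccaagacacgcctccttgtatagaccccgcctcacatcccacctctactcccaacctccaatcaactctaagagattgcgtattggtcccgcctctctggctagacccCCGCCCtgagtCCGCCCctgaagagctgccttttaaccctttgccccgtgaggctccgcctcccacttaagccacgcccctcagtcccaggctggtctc
The window of *Ifngr2* held 4 GC boxes, the last pair sharing 1 base, those of *Ifnar1* and *Ifngr1* held 2 each, and 32.7% of 32851 promoter windows of this length held at least 1. A match to TTCNNNGAA was present in 7.02% of all windows. None of the 4 windows held the interferon-stimulated response element (GAAA, any 2 bases, GAAA, found in 2.98% of all windows) or TATAAA (12.4%), each searched on both strands. The CCGGAA core of ETS factors, found in 12% of windows, occurred 3 times in *Ifnar1*, 2 of these overlapping on opposite strands, and in none of the other 3. The G and C content was 54% in *Ifnar2*, 65.6% in *Ifnar1*, 74% in *Ifngr2* and 59.2% in *Ifngr1*, beside a median of 52.4% over all windows. These matches describe the letters only.

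All values are log2 expression values, and a difference is Ts1Cje minus disomic unless stated otherwise. A probe set was called in limma when its adjusted p (Benjamini-Hochberg, across the whole array) did not exceed 0.05 and the size of its moderated t was 4 or more. *Ifnar1* had 2 probe sets above the median of their array on all 72 arrays, with means of 6.33 (1442222_at) and 6.06 (1449026_at). *Ifnar2* was measured by 1451462_a_at (mean 5.43, above the median on 72 arrays), 1427691_a_at (3.76, 69 arrays) and 1440169_x_at (3.35, 38 arrays). *Ifngr2* had 1 probe set with a mean of 5.37 (1423557_at, 68 arrays) and 1 that lay above the array median on a single array (1423558_at, mean 2.49). For *Il10rb*, 1419455_at had a mean of 5.05 on 72 arrays and 1429959_at, with a mean of 2.47, never exceeded the median. *Ifngr1* had 1 probe set, 1448167_at, with a mean of 3.82 and 68 arrays above the median. The array medians were between 3.20 and 3.37, and the differences of the probe sets near or below them may be understated.

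Several arrays stood apart. The upper quartile of 3 disomic arrays, numbered 3 in the P1 cerebellum, P84 cerebral cortex and P84 hippocampus, was 4.97 to 5.51 against 5.65 to 5.93 on the other arrays. The P15 disomic arrays numbered 3 of the cerebellum and hippocampus each lay at the other region rather than their own, and are called displaced below. Over 8 cerebellar genes the lowest P15 disomic cerebellum array was at 4.89 and the highest P15 disomic hippocampus array at 12.37. Whether the labels were exchanged was not tested, and both arrays were kept under their labels. On 3 arrays, those numbered 3 of the P1 Ts1Cje mice, *Xist* exceeded the Y-linked *Eif2s3y*, and on the other 69 it did not, although all are labelled female. Marker genes were highest in the labelled regions at P84, where the mean of 8 cerebellar genes was 12.40 to 12.65 in the cerebellum, 4.49 to 4.94 in the cerebral cortex and, over a wider range, 4.13 to 5.92 in the hippocampus, and that of 7 measured hippocampal genes was 7.87 to 8.36 in the hippocampus and 3.66 to 4.25 elsewhere. Over the 12 comparisons the Ts1Cje minus disomic difference of 11 measured microglial genes of 12 listed was -0.64 to 0.55. That of 8 neuronal genes was -0.10 to 0.24. Both microglial extremes came from groups with a displaced disomic array. These were the P15 cerebellum, at 4.48 in Ts1Cje and 5.13 in disomic mice, and the P15 hippocampus, at 6.31 and 5.76. In the cerebral cortex, without displaced arrays, the microglial difference was -0.06 to 0.13. Blood genes, of which 4 of 7 were measured, had array means of 2.14 to 3.11 at P1 and P84.

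**Figure D1:**
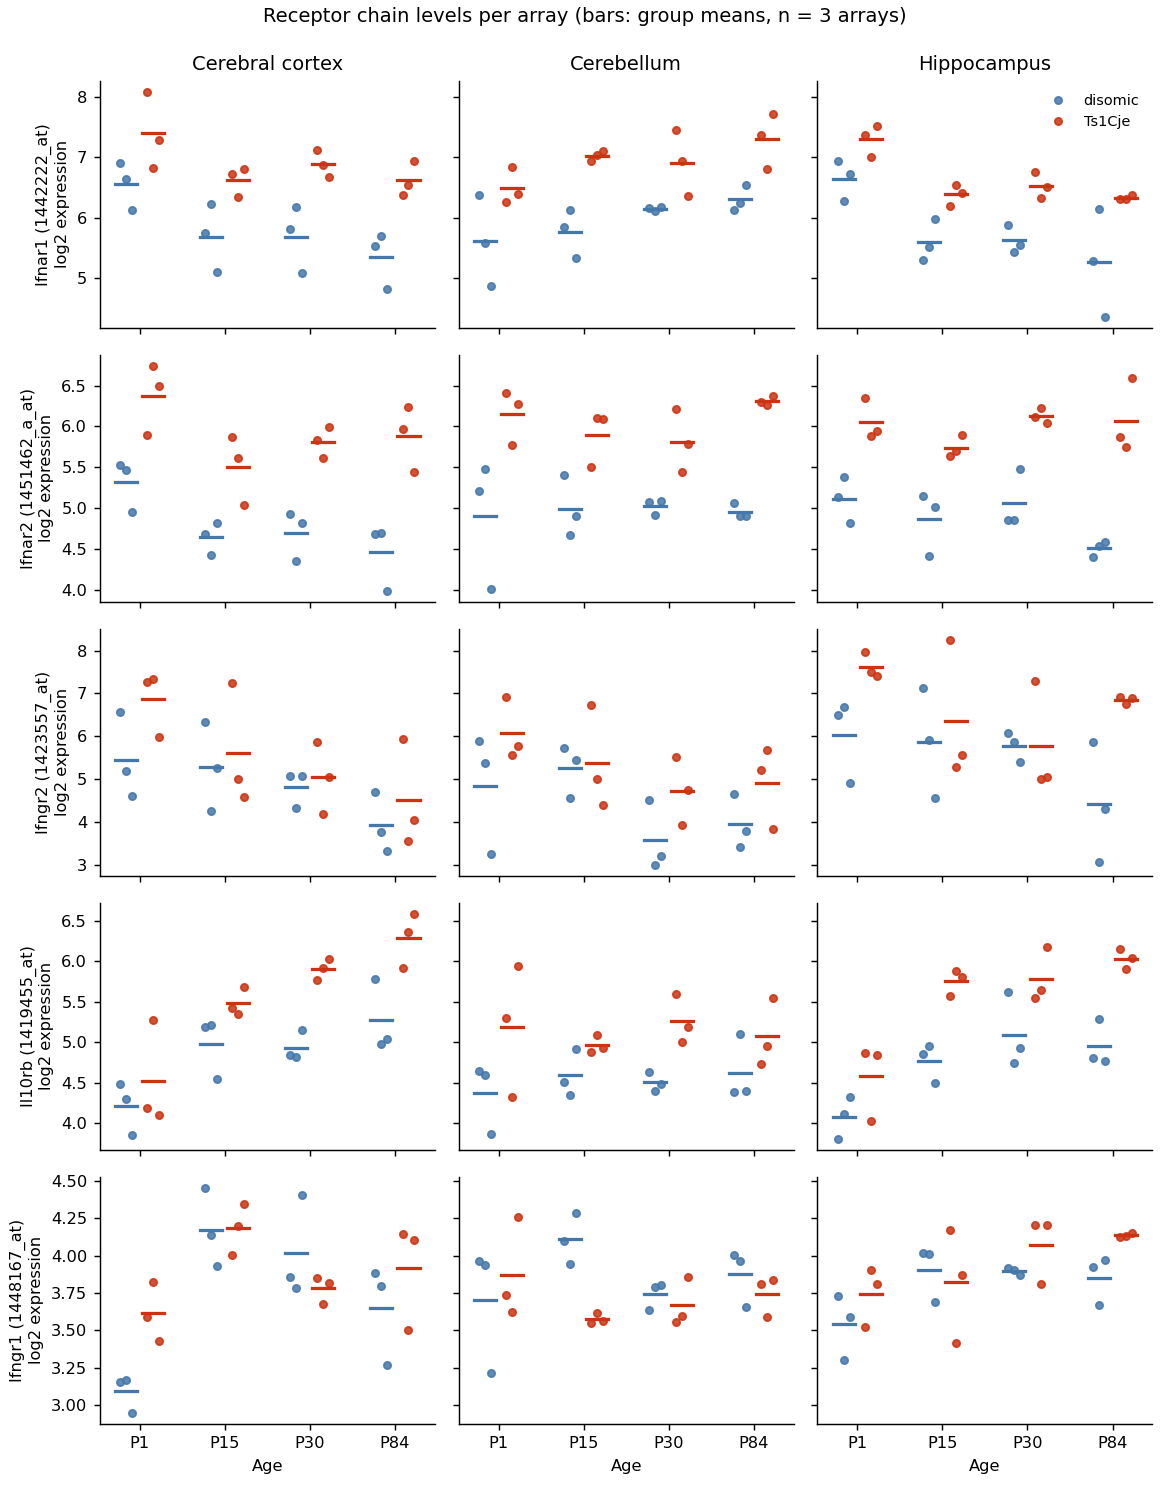
Log2 expression of the main probe set of each receptor chain (rows, y axis) on every array by age (x axis) and region (columns), with disomic arrays in blue, Ts1Cje arrays in red and bars at the group means of 3 arrays. *Ifnar2* arrays of the 2 genotypes do not overlap in any of the 12 comparisons, whereas those of *Ifngr1* overlap in all but 3.

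Both chains of the type I interferon receptor were higher in Ts1Cje mice in all 3 regions. *Ifnar2*, the chain that binds type I interferon with high affinity, gave the clearest separation. In the P84 hippocampus its main probe set, 1451462_a_at, read 4.40, 4.53 and 4.59 on the disomic arrays and 5.87, 5.75 and 6.59 on the Ts1Cje arrays. In the P84 cerebellum it read 5.06, 4.91 and 4.90 against 6.30, 6.27 and 6.38. In both regions the lowest Ts1Cje array lay more than 1 log2 unit above the highest disomic array. In the P84 cerebral cortex the disomic arrays read 4.68, 4.70 and 3.99 and the Ts1Cje arrays 5.96, 6.23 and 5.44, and in the P1 cerebellum they read 5.21, 5.47 and 4.01 against 6.41, 5.77 and 6.27. The lowest disomic array of these last 2 groups is in each case one of the 3 dim ones.

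For *Ifnar2* every Ts1Cje array was above every disomic array in 12 of 12 comparisons at this probe set. Such a separation was found for 4.9% of all probe sets and comparisons. The same share stands beside the counts of separated comparisons given below for other probe sets and chains. The differences of *Ifnar2* at this probe set were 0.79 to 1.57 with a median of 1.06 and a standard error (SE) of 0.27. By limma 4 of the 12 were called higher, where 0.0643% of all probe sets and comparisons were, at P84 in the hippocampus (1.57, adjusted p = 0.00237), cerebellum (1.36, adjusted p = 0.0132) and cerebral cortex (1.42, adjusted p = 0.0151) and at P1 in the cerebellum (1.25, adjusted p = 0.0146). In the P1 cerebellum, with its dim disomic array, 0.406% of all probe sets were called higher. Without the 3 dim arrays the cortical difference was 1.19 and the P1 cerebellar difference 0.81, and neither was called (limma adjusted p = 0.195 and 0.508). The former was also lost without Ts1Cje array 1 (1.38) or 2 (1.25), and the latter without Ts1Cje array 1 (1.12) or 3 (1.19). The P84 hippocampal call was lost without Ts1Cje array 3 (1.31), and the P84 cerebellar call without Ts1Cje array 2 (1.38) or 3 (1.33) or disomic array 2 (1.33) or 3 (1.33). Averaged over the 4 ages, the cortical, cerebellar and hippocampal differences were 1.12, 1.08 and 1.12, each with an SE of 0.14. All 3 were called, beside 0.191%, 0.217% and 0.184% of all probe sets in these regions, and remained so under every alternative tried for them. The corresponding fold changes were 2.17, 2.11 and 2.17. The lower 95% confidence limits of the 3 averages, 0.84, 0.80 and 0.84, were above 0.58, the log2 value of 1.5-fold.

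The other *Ifnar2* probe sets read lower and differed less. For 1427691_a_at the region averages were 0.29, 0.31 and 0.45 in the cerebral cortex, cerebellum and hippocampus (SE 0.09), of which the hippocampal one was called. Its P15 hippocampus difference of 0.85 (limma adjusted p = 0.0243) came from disomic arrays at 3.44, 3.71 and 3.64 and Ts1Cje arrays at 4.21, 4.99 and 4.15. Without the displaced disomic array it was 0.88 and not called (adjusted p = 0.158), and it was also lost without Ts1Cje array 2 (0.58) or disomic array 1 (0.77). For 1440169_x_at the averages were 0.61, 0.56 and 0.91 (SE 0.17), again called in the hippocampus alone. Both hippocampal calls were lost without the Ts1Cje arrays numbered 2 (0.39 and 0.84), and the latter also without those numbered 3 (0.76). The Ts1Cje arrays were above all disomic arrays in 6 and 7 of the 12 comparisons at these probe sets. Whether the 3 probe sets read the same transcripts was not tested.

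*Ifnar1*, the second chain of the type I interferon receptor, was similarly raised at both of its probe sets. In the P84 cerebral cortex 1449026_at read 5.34, 5.48 and 4.81 in disomic and 6.10, 6.78 and 6.97 in Ts1Cje mice. This was the single *Ifnar1* comparison called (1.41, limma adjusted p = 0.029), and it was 1.21 with an adjusted p of 0.195 without the dim array. It was also lost without Ts1Cje array 2 (1.33) or 3 (1.23) or disomic array 1 (1.48). In the P15 cerebellum 1442222_at read 5.84, 6.12 and 5.33 against 6.94, 7.03 and 7.10, with the arrays again fully apart and the displaced disomic array the lowest. The 2 genotypes did not overlap in 10 of 12 comparisons at each *Ifnar1* probe set. The differences were 0.65 to 1.27 for 1442222_at and 0.45 to 1.41 for 1449026_at, all positive.

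The region averages of *Ifnar1* were 1.06, 0.98 and 0.86 at 1442222_at (SE 0.17) and 1.10, 0.96 and 0.73 at 1449026_at (SE 0.14) in the cerebral cortex, cerebellum and hippocampus. All 6 were called, corresponding to 1.65- to 2.15-fold. The lower confidence limits in the hippocampus, 0.52 and 0.44, were under 0.58, and those in the other regions, 0.64 to 0.81, were above it. Leaving out Ts1Cje arrays numbered 1 took both hippocampal averages out of the called set (0.85 with a limma adjusted p of 0.053 and 0.70 with 0.056). That of 1442222_at was also lost without Ts1Cje arrays numbered 3 (0.82), and that of 1449026_at without Ts1Cje arrays numbered 2 (0.72) or disomic arrays numbered 1 (0.63).

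*Ifngr2*, the signalling chain of the interferon gamma receptor, had a far wider spread. At 1423557_at the P84 hippocampus read 5.87, 3.06 and 4.29 in disomic and 6.92, 6.74 and 6.89 in Ts1Cje mice, and the P30 cerebral cortex read 5.06, 4.32 and 5.07 against 5.86, 4.19 and 5.06. The first comparison is fully separated and the second overlaps, with 1 Ts1Cje array under all disomic arrays. Over the 12 comparisons the difference was between -0.003 and 2.44 with a median of 0.77 and an SE of 0.79, and in 2 of them no arrays overlapped. None was called by limma, although 2 had an unadjusted p under 0.05. The region averages were 0.64, 0.87 and 1.13 (SE 0.39) with confidence intervals of -0.15 to 1.43, 0.08 to 1.66 and 0.34 to 1.93, none of them called. These intervals include 0.58, and the first also includes 0. Leaving out the Ts1Cje arrays numbered 1 brought the 3 averages to 0.10, 0.46 and 0.66, and the cortical one was 0.39 without the disomic arrays numbered 2 and 1.04 without those numbered 1. The hippocampal average was called with the array number as a block (limma adjusted p = 0.0116 within age and 0.0248 over all ages and regions). The average of all 12 comparisons was 0.88 (SE 0.23, limma adjusted p = 0.0507). It was called in 6 of 19 alternatives, without the Ts1Cje arrays numbered 2 (1.09) or 3 (1.15), the disomic arrays numbered 1 (1.29) or both genotypes' arrays numbered 1 (0.82), and with either block (adjusted p = 3.42e-05 and 9.35e-05). It was 0.41 without the Ts1Cje arrays numbered 1 (adjusted p = 0.43).

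The spread of *Ifngr2* followed the array number in the labels. The array numbered 1 had the highest 1423557_at value of its group in 20 of 24 groups, and the mean over the arrays numbered 1 was 6.26, against 4.85 over those numbered 3. When arrays of the same number were set against each other, the Ts1Cje array was higher in 12 of 12 pairs numbered 1, by 0.57 to 1.46 with a median of 1.01. It was higher in 8 of 12 pairs numbered 2, with a range of -0.86 to 3.68, and in 8 of 12 pairs numbered 3, with a range of -1.05 to 2.60. The labels do not say that a number joins littermates, and what the numbers stand for in the laboratory is unstated in the sources read. The dim probe set 1423558_at, which differed by 0.36, 0.23 and 0.29 in the 3 regions (SE 0.08), was called in the cerebral cortex (limma adjusted p = 0.0373) but not without the 3 dim arrays (adjusted p = 0.069), the Ts1Cje arrays numbered 2 (0.32) or 3 (0.38) or the disomic arrays numbered 1 (0.34) or 2 (0.34).

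**Figure D2:**
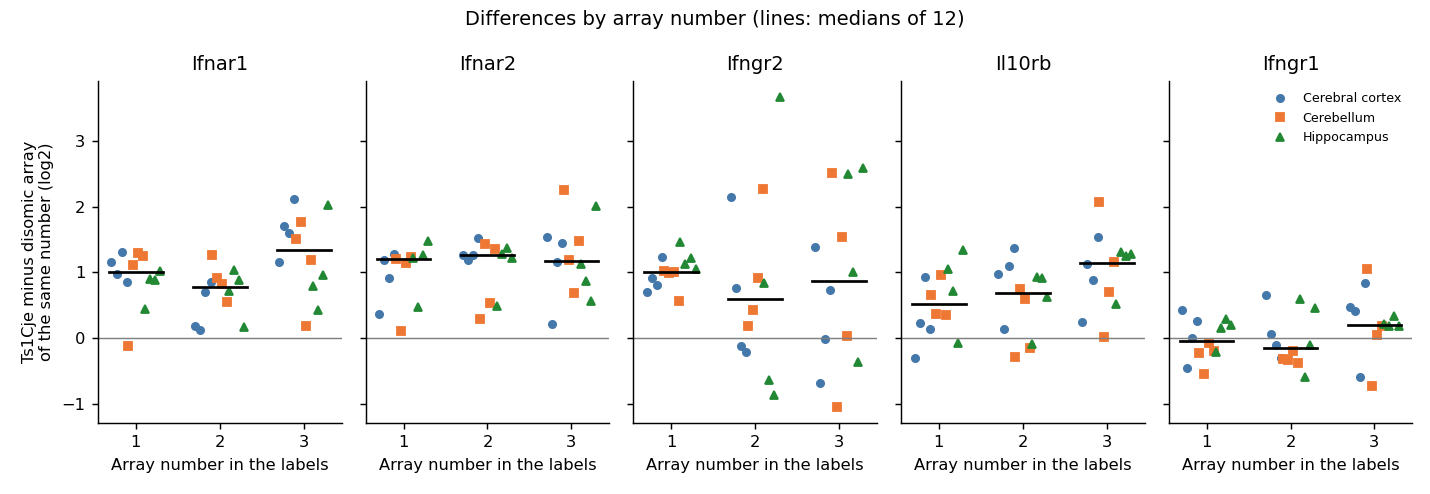
Ts1Cje minus disomic difference (log2, y axis) between arrays of the same number (x axis) for the main probe set of each receptor chain, 1 point per region and age, with lines at the medians of 12 points. For *Ifngr2* the pairs numbered 1 lie between 0.57 and 1.46, while those numbered 2 and 3 spread from -1.05 to 3.68.

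*Il10rb*, the shared chain of the interleukin-10 and type III interferon receptors, was higher in Ts1Cje mice in the cerebral cortex and hippocampus. In the P84 hippocampus 1419455_at read 4.81, 5.28 and 4.76 in disomic and 6.15, 5.91 and 6.04 in Ts1Cje mice, and in the P30 cerebral cortex it read 4.84, 4.82 and 5.14 against 5.77, 5.91 and 6.03. Both comparisons were separated without overlap, as were 4 more of the 12. In the P1 cerebral cortex the disomic arrays at 4.49, 4.30 and 3.85 and the Ts1Cje arrays at 4.18, 5.27 and 4.09 overlapped. The differences were 0.30 to 1.08 (SE 0.30), positive in 12 of 12, and no single comparison was called, 7 of them with an unadjusted p under 0.05.

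The cortical, cerebellar and hippocampal averages of *Il10rb* were 0.70, 0.60 and 0.81 (limma adjusted p = 0.0125, 0.0674 and 0.00124), each with an SE of 0.15, so that the first and last were called. The confidence intervals of 0.40 to 0.99, 0.30 to 0.90 and 0.52 to 1.11 all include 0.58. The cortical call was lost when the Ts1Cje arrays numbered 2 (0.61) or 3 (0.67), or the disomic arrays numbered 2 (0.69) or 3 (0.60), were left out. The cerebellar average was called without the 2 displaced arrays (0.64, adjusted p = 0.037) and without the Ts1Cje arrays numbered 2 (0.74, adjusted p = 0.010). The dim probe set 1429959_at did not separate the genotypes in any comparison, with region averages of 0.01, 0.09 and -0.06 (SE 0.09).

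*Ifngr1*, the ligand-binding chain of the interferon gamma receptor and a gene with 2 copies in both genotypes, showed no difference that passed the test. Its region averages were 0.14, -0.14 and 0.14 (SE 0.09), with upper confidence limits of 0.33, 0.05 and 0.33, below the 0.58 of a 1.5-fold change. The single comparisons ran from -0.54 to 0.52. The P15 cerebellum, at 4.10, 3.95 and 4.28 in disomic and 3.55, 3.62 and 3.56 in Ts1Cje mice, was the only one with every Ts1Cje array lower, which was seen for 4.5% of all probe sets and comparisons. In the P1 cerebral cortex (3.16, 3.17 and 2.95 against 3.59, 3.82 and 3.43) and the P84 hippocampus (3.92, 3.67 and 3.97 against 4.13, 4.13 and 4.15) every Ts1Cje array was higher. The P15 cerebellum group includes 1 of the displaced disomic arrays, which gave the highest value.

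**Figure D3:**
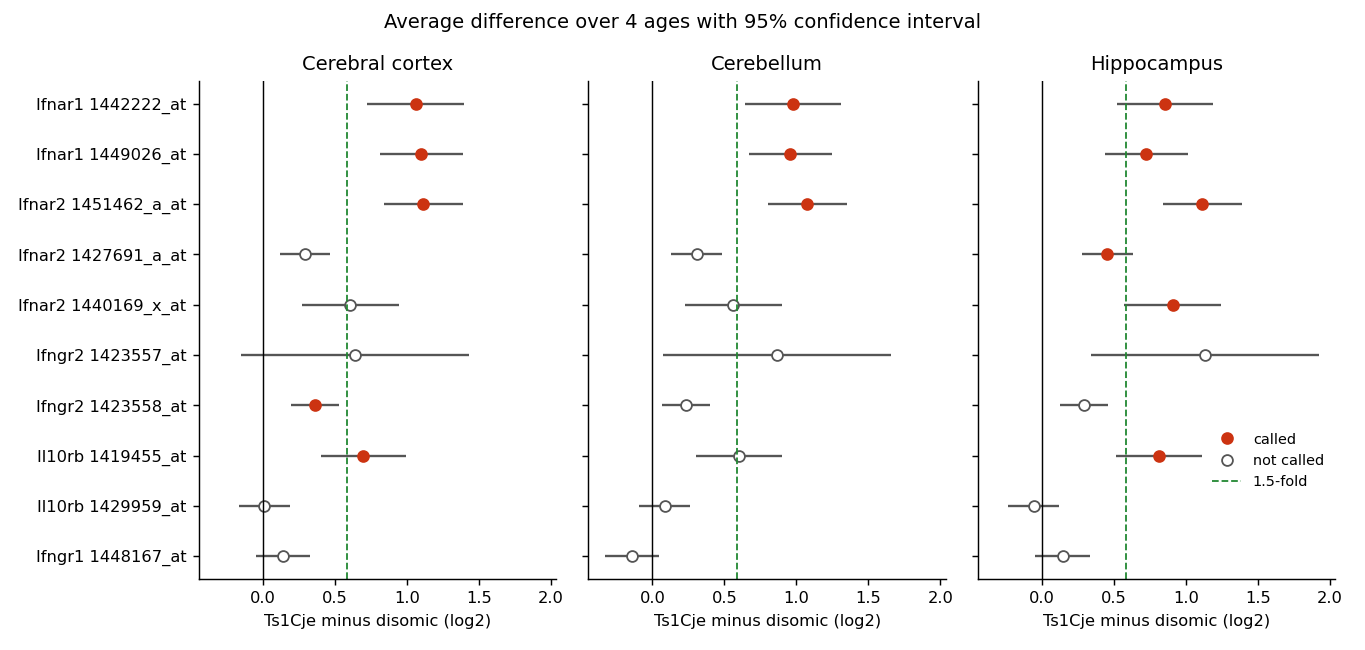
Ts1Cje minus disomic difference averaged over 4 ages (log2, x axis) for the 10 probe sets (y axis) in each region, with 95% confidence intervals from limma, filled red points for called probe sets, and a dashed line at 1.5-fold. The intervals of the main *Ifnar2* probe set lie to the right of that line in every region, and those of *Ifngr1* to the left.

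Over all 10 probe sets, 6 of 120 single comparisons were called, all of them higher in Ts1Cje mice. Over the whole array 0.0643% of probe sets and comparisons were called higher. In limma 60 of the 120 had an unadjusted p under 0.05. No share over the array is given for this or any other count of unadjusted p values here. Such counts are therefore not read as a result about the receptor chains. The 6 belonged to *Ifnar1* and *Ifnar2*. Of the 30 region averages, 14 were called higher, spread over 7 probe sets of the 4 triplicated genes. Of the averages over all 12 comparisons, 7 of 10 were called, beside 0.517%. The single calls rested on few arrays, as their count was 1 without disomic replicate 3 of each comparison, 2 without Ts1Cje replicate 3, 3 without the 5 dim or displaced arrays, and 0 without both genotypes' arrays numbered 1. The count of region averages called was 6 in the last setting. No probe set was called for a difference between 2 regions (0% of all probe sets), and in limma 2 of 30 such tests, both for *Ifngr1*, had an unadjusted p under 0.05. None was called for a change of the genotype difference with age, where 1 of 30 tests had an unadjusted p under 0.05 and 0.0399% of all probe sets passed in the cerebellum.

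To compare chains directly, the difference of 2 chains was taken on each array. The pairs were *Ifngr2* and *Ifngr1*, the chains of the interferon gamma receptor, *Ifnar1* and *Ifnar2*, those of the type I receptor, and *Il10rb* and *Ifngr1*, a triplicated and a disomic chain of different receptors. The level of the second chain was subtracted and the genotype labels were permuted within each age. These exact permutation tests, two-sided, were run for the 3 pairs in 3 regions and adjusted over the 9 tests. The genotype difference of *Ifngr2* exceeded that of *Ifngr1* by 1.01 in the cerebellum (exact permutation p = 0.00829, adjusted p = 0.0186, larger at 4 of 4 ages). The excess was 0.99 in the hippocampus (exact permutation adjusted p = 0.0533, 3 of 4 ages) and 0.50 in the cerebral cortex (exact permutation adjusted p = 0.249, 4 of 4 ages), which did not pass. The cerebellar value was 0.57 without Ts1Cje replicate 1 and no longer passed (exact permutation adjusted p = 0.241), nor did it pass without disomic replicate 2 (0.83) or 3 (0.83) or the 5 dim or displaced arrays (0.88). The hippocampal value was 0.55 without Ts1Cje replicate 1 and 0.64 without disomic replicate 3, and it passed without Ts1Cje replicate 3 (1.23) or disomic replicate 1 (1.38). The cortical value was between -0.03, without Ts1Cje replicate 1, and 0.84, without disomic replicate 1. The excess of *Il10rb* over *Ifngr1* was 0.56, 0.74 and 0.67 in the cortex, cerebellum and hippocampus, with exact permutation adjusted p values of 0.0164, 0.000563 and 0.00647, and was present at 3, 4 and 4 of 4 ages. The cortical result was lost without Ts1Cje replicate 2 (0.43) or disomic replicate 3 (0.50). The 2 type I chains differed from each other by -0.05, -0.10 and -0.26 (*Ifnar1* minus *Ifnar2*), with exact permutation adjusted p values of 0.825, 0.659 and 0.25, and spreads over the 4 ages of 0.16, 0.34 and 0.18 (SD).

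The receptor genes were set beside the rest of the triplicated segment, where 79 genes were measured and 38 had a mean of at least 5. The median cortical, cerebellar and hippocampal average of these 38 genes was 0.70, 0.73 and 0.67, within a range of 0.21 to 1.13. In order of the 3 regions, *Ifnar2* had rank 1, 1 and 2 among the 38 and *Ifnar1* rank 2, 3 and 9. *Ifngr2* had rank 25, 8 and 1 and *Il10rb* rank 20, 28 and 10. These ranks are those of the main probe set of each gene, and dimmer probe sets with smaller differences were not ranked. For *Ifnar2* these were 1427691_a_at and 1440169_x_at, with median differences of 0.35 and 0.64 over the 12 comparisons. Of the 79 genes, 35, 35 and 34 were called higher and none lower, beside 0.191%, 0.217% and 0.184% of all probe sets called higher. The median over all probe sets of the array was within 0.01 of 0 in each region. The neighbours on either side behaved in different ways. *Gart*, an enzyme of purine synthesis, differed by 0.82, 0.84 and 0.50 and *Tmem50b*, a membrane protein, by 0.59, 0.82 and 0.88, all called. *Olig1*, a transcription factor of the oligodendrocyte lineage, differed by 0.41, 0.21 and 0.43 and *Dnajc28* by 0.46, 0.35 and 0.48, called in the cerebral cortex and hippocampus. *Olig2* differed by 0.27, 0.26 and 0.59 and 4932438H23Rik by -0.02, 0.06 and -0.10, none of them called.

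Over development, the receptor chains took different courses. *Ifnar1* fell from P1 to P84 over both genotypes in the cerebral cortex, by 1.00 at 1442222_at and 1.14 at 1449026_at, and in the hippocampus, by 1.18 and 1.47 (SE 0.24 and 0.20). All 4 were called, where 15.1% and 13.2% of all probe sets were called lower in these regions. At 1442222_at the cortical call was lost on the threshold for t without the 3 dim arrays (-0.87), Ts1Cje replicate 1 (-0.77) or 3 (-1.11) or disomic replicate 1 (-0.96), with the direction unchanged. In the cerebellum the 2 *Ifnar1* probe sets went in opposite directions, with 0.75 at 1442222_at and -0.49 at 1449026_at, and neither was called. Most of the hippocampal fall was already present between P1 and P15, with called steps of -0.98 and -0.97, beside 10.4% of all probe sets called lower.

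*Il10rb* rose over the same time in the forebrain regions. From P1 to P84 the cortical and hippocampal differences at 1419455_at were 1.41 and 1.16 (SE 0.21), both called, where 11.3% and 10.4% of all probe sets were called higher. In the cerebellum it was 0.07. The steps from P1 to P15 were 0.87 and 0.93 in the same 2 regions, also called, where 10.8% and 8.68% of all probe sets were called higher. The mean of the 11 microglial genes was 3.82 to 4.76 at P1 and 6.34 to 6.43 at P84 in the cerebral cortex, 4.46 to 5.02 and 6.22 to 6.62 in the hippocampus, and 4.28 to 5.04 and 4.59 to 5.05 in the cerebellum. Neuronal genes were 10.25 to 10.74 at P1 and 11.23 to 11.60 at P84 in the cerebral cortex and 10.05 to 10.51 and 11.05 to 11.44 in the cerebellum. Myelin and oligodendrocyte genes, of which 7 of 8 were measured, were 3.62 to 4.42 and 10.04 to 10.39 in the cerebral cortex and 4.91 to 5.75 and 10.40 to 10.62 in the cerebellum. Astrocyte genes were 6.69 to 7.46 and 9.88 to 10.28 in the cerebral cortex and 7.66 to 8.75 and 10.63 to 11.07 in the cerebellum. These last 3 lists were higher at P84 in the hippocampus as well. P1 and P84 arrays did not overlap there or in the cerebellum. The part of these cell types in the change of *Il10rb* was not tested.

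The other chains were not called between P1 and P84 at their main probe sets. *Ifngr2* had differences of -1.94, -1.03 and -1.20 (SE 0.56), *Ifnar2* of -0.68, 0.11 and -0.29 (SE 0.19) and *Ifngr1* of 0.43, 0.02 and 0.35 (SE 0.13) in the cerebral cortex, cerebellum and hippocampus. The cortical values of *Ifngr2* and *Ifngr1* had limma adjusted p values of 0.00341 and 0.00666 with a t under 4 in size. That of *Ifngr2* was called without the Ts1Cje arrays numbered 1 (-2.20) or both genotypes' arrays numbered 1 (-2.11), with array quality weights (-2.05) and with 1 block over all ages and regions, and that of *Ifngr1* without the Ts1Cje arrays numbered 2 (0.59) or without the 3 dim or the 5 dim or displaced arrays (0.525). The hippocampal value of *Ifngr2* was -0.70 without the disomic arrays numbered 2. *Ifngr1* rose between P1 and P15 in the cerebral cortex by 0.82 (SE 0.13, limma adjusted p = 7.54e-07).

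Among disomic mice, the order of the 12 region and age groups was led by the P1 hippocampus for *Ifnar1* (6.65 ± 0.34, SD, n = 3) and ended with the P84 hippocampus (5.26 ± 0.89). For *Ifnar2* it ran from the P1 cerebral cortex (5.32 ± 0.32) to the P84 cerebral cortex (4.46 ± 0.40), and for *Ifngr2* from the P1 hippocampus (6.03 ± 0.97) to the P30 cerebellum (3.57 ± 0.82). *Il10rb* was highest in the P84 cerebral cortex (5.27 ± 0.45) and lowest in the P1 hippocampus (4.08 ± 0.26). For these 4 genes all 11 pairs of neighbours in the order overlapped. *Ifngr1* ran from the P15 cerebral cortex (4.17 ± 0.26) to the P1 cerebral cortex (3.09 ± 0.12), which alone did not overlap its neighbour. The P15 cerebellum and P15 hippocampus groups each include a displaced array.

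The genes most like each chain over the 12 disomic group means, among 7756 other genes with a mean of at least 5, were *Mcf2l* for *Ifnar1* (Pearson's r = 0.979), *Zfp61* for *Ifnar2* (r = 0.926), *Klhl5* for *Ifngr2* (r = 0.943), *Baiap2* for *Il10rb* (r = 0.970) and *Morn2* for *Ifngr1* (r = 0.939, among 7757 genes). Next to *Baiap2*, which encodes a postsynaptic scaffold protein, the list for *Il10rb* held *Syt1*, the calcium sensor of synaptic vesicle release (r = 0.963). Over the 12 Ts1Cje means the same 2 genes gave r = 0.890 and 0.907, whereas *Mcf2l* gave 0.765 with *Ifnar1* and *Zfp61* 0.660 with *Ifnar2*. These values describe 12 points that share regions and ages. The disomic points of the P15 cerebellum and P15 hippocampus each include a displaced array.

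Among the listed ligands, further receptor chains and kinases no gene was called between genotypes in any comparison or region average. Of 6 measured interferon ligands and 3 measured ligands of the interleukin-10 family, none was called in any comparison or region average and none had a mean of 5, with *Ifnb1* at 2.57 and *Il10* at 1.68. The 6 further disomic receptor chains listed were not called either. Among them *Il10ra*, the ligand-binding chain of the interleukin-10 receptor, had region averages of 0.01, -0.10 and -0.05. Those of *Il20rb*, a chain of a related receptor, were -0.14, -0.42 and -0.39. The kinases *Jak1* (-0.09, -0.10 and -0.002) and *Jak2* (0.02, -0.09 and -0.02) had region averages near 0 with SEs of 0.10 and 0.09. Over development, *Jak1* differed by 1.01 in the cerebral cortex and *Jak2* by -1.30, both called. Of 3 measured signal transducers *Stat2* and *Stat3* were not called in any comparison or region average, with region averages of -0.15, 0.31 and -0.15 and of 0.05, 0.40 and 0.32. None of 5 interferon regulatory factors, led by *Irf3* (mean level 5.47), was called. The same held for 9 measured chains of other cytokine receptors, led by *Lifr* (7.91). Each of these pathway genes was read at its probe set with the highest mean alone. That mean was 2.55 for *Irf7* and 2.65 for *Lepr*, below the array medians. The paper reports *Irf3* at P15, *Irf7* at P84 and *Lepr* at P1 as upregulated in the cerebellum. Any other probe sets of these genes are not analysed here.

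Downstream genes were called in 1 of the 12 comparisons, the P84 cerebellum. Of the 32 listed interferon-stimulated genes 30 were measured, among them *Mx1* and *Mx2*, which lie in the triplicated segment. In the P84 cerebellum all 30 had a positive difference and 9 were called higher in Ts1Cje mice, where 0.0976% of all probe sets were called higher. In the other 11 comparisons none was called in either direction. *Ifit3*, an antiviral protein that binds other IFIT proteins, read 5.51, 5.18 and 5.22 in disomic and 6.33, 8.45 and 7.06 in Ts1Cje mice, a difference of 1.97 (SE 0.28). *Irf9*, the DNA-binding partner of STAT proteins in type I interferon signalling, read 3.66, 3.66 and 3.61 against 4.72, 5.74 and 4.95, a difference of 1.49 (SE 0.22). *Usp18*, which restrains signalling at IFNAR2, differed by 1.00 and was the only 1 of 13 negative regulators called. The other 8 interferon-stimulated genes called were *Ifi27* (1.53), *Rtp4* (1.45), *Oasl2* (1.44), *Gbp3* (1.40), *Igtp* (1.28), *Irgm1* (1.13), *Ifit1* (0.72) and *Gbp2* (0.67). Several of the called genes had mean levels below the array medians. These were *Rtp4* (3.00), *Oasl2* (2.81), *Ifit1* (2.21), *Gbp2* (3.18) and *Usp18* (2.46). The median difference of the 30 genes was 0.62, against -0.0008 over all probe sets, and 21 of the 30 had every Ts1Cje array above every disomic array, beside 4.65% of all probe sets.

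The mean of the 30 interferon-stimulated genes was 3.59, 3.51 and 3.53 on the disomic arrays of the P84 cerebellum and 3.91, 4.49 and 4.31 on the Ts1Cje arrays. In the P1 cerebellum the order was the other way round, with 3.37, 3.37 and 3.48 against 3.29, 3.15 and 3.34. The highest of these disomic values, 3.48, was that of a dim array. Without Ts1Cje replicate 2 of the P84 cerebellum, the array with the highest mean, the count was 5, and with the spread estimated from the cerebellum alone it was 0. In the same 6 arrays *Ifnar2* was separated as described above, *Ifnar1* differed by 0.99, *Ifngr2* by 0.96 and *Il10rb* by 0.45. Over 8 astrocyte genes the disomic arrays lay at 10.96 to 11.07 and the Ts1Cje arrays lower, at 10.63 to 10.80, without overlap. The 11 measured microglial genes lay at 4.59 to 4.77 on the disomic and 4.68 to 5.05 on the Ts1Cje arrays, which overlapped, and 8 meningeal genes at 5.38 to 5.43 and 5.45 to 5.81, which did not. The part of these cell types in the result was not tested. In the P84 hippocampus and cerebral cortex, where *Ifnar2* differed by 1.57 and 1.42, the median difference of the 30 genes was 0.13 and 0.31. Their means were 3.61 to 3.70 on the disomic and 3.73 to 3.95 on the Ts1Cje arrays of the hippocampus. In the cortex they were 3.62 to 3.76 and 3.86 to 4.07. The lowest disomic mean of each region was that of a dim array. Every Ts1Cje array was above every disomic array for 6 of the 30 genes in this hippocampus group, beside 8.53% of all probe sets. In the cortex this held for 8 of the 30, beside 6.68%. No gene of the 30 had every Ts1Cje array below in either region. Averaged over all ages 1 of the 30, *Irgm1* in the cerebellum (0.43, limma adjusted p = 0.046), was called, beside 0.217% of all probe sets. In the average over all 12 comparisons 5 were called, beside 0.517% of all probe sets called higher.

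**Figure D4:**
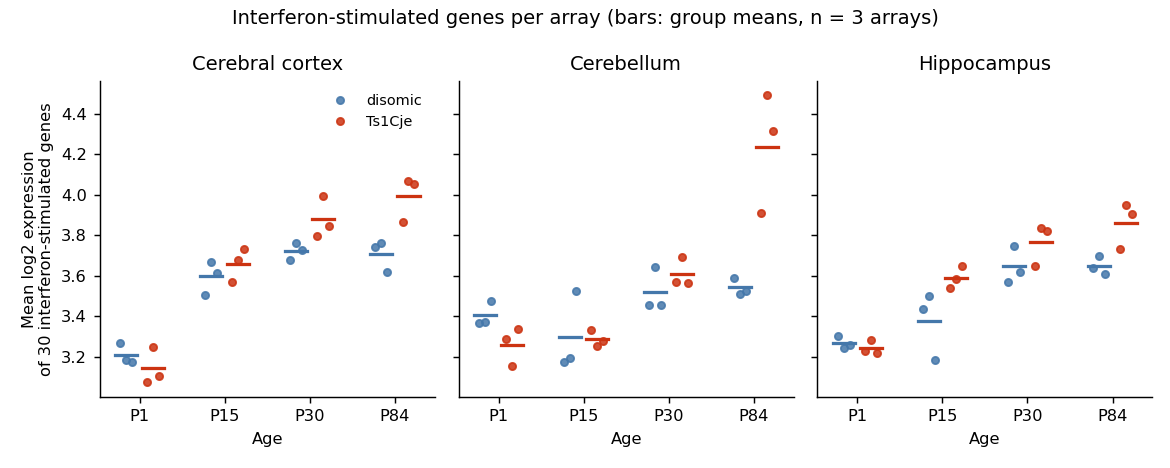
Mean log2 expression of the 30 measured interferon-stimulated genes (y axis) on each array by age (x axis) and region, with disomic arrays in blue, Ts1Cje arrays in red and bars at the means of 3 arrays. The Ts1Cje arrays of the P84 cerebellum lie between 3.91 and 4.49, above the disomic arrays of that group at 3.51 to 3.59.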

How the data were processed

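The authors made the deposited log2 values from 72 arrays with GCRMA, which corrects probes for background by base composition, normalizes the arrays and summarises each probe set (the version was not given in the sources used here). Replicates were not pooled, and the values were used as deposited. Groups came from the labels. Arrays give no count of molecules, and 3 arrays a group limit the precision; the regions came from the same mice, so that arrays of different regions are not independent. The labels give arrays as biological replicates.

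Of 45101 probe sets, 34958 had 1 gene symbol, 932 several and 9211 none, and gene identifiers joined 34754 of them to assembly GRCm38.p6, which gave names and gene order. Where 1 value per gene was needed, the probe set with the highest mean was taken. The model, in limma 3.58.1 under R 4.3.3, had 1 mean per group (24 means, 48 residual degrees of freedom) and calls at the thresholds of the study's methods; it was tested on simulated data. Pairs of chains were compared by exact permutation tests over 160000 arrangements, whose smallest possible p is 1.25e-05. All member probe sets are named, with pathway genes called in a comparison or region average, up to 2 uncalled genes of a list with the highest means, 3 measured genes on either side of the cluster and the genes most like each member.

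Members, lists and tests were chosen with earlier results of these data known. Alternatives were a replicate block, other priors, normalizations, filters, fits and array weights, and leaving out doubted arrays or each replicate; the block over all regions, the omission of arrays numbered 1 and the alternatives for pathway genes and pairs of chains were chosen after seeing the data. The sources do not say what the replicate numbers join, so the fit had no block; the block is an alternative. Some listed genes and the *Il10rb* promoter are not analysed here.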

Additional observations from a re-analysis of the deposited data

Results flagged for a closer look

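The genotype difference changed with age in the cerebellum for 6 pathway genes by a moderated F test in limma, in which the differences at P15, P30 and P84 were set against that at P1. The adjusted p values were 0.00124 for *Ifit3*, 0.00964 for *Irf9* and *Gbp3*, 0.0103 for *Igtp* and *Oasl2*, and 0.0481 for *Usp18*. The *Ifit3* difference was -0.62 at P1, -0.18 at P15, -0.04 at P30 and 1.97 at P84, and that of *Irf9* was -0.24, -0.15, 0.26 and 1.49. The P1 differences rest in part on a dim array, disomic array 3 of the P1 cerebellum. No receptor chain passed this test in any region. Leaving out Ts1Cje replicate 2 or 3, or disomic replicate 3, brought the count of 6 to 0, and leaving out disomic replicate 1 or 2 brought it to 1 or 2.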

How the results depend on the processing

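Of 929 values of the Ts1Cje minus disomic difference under alternatives, 833 kept their direction and side of the threshold, as did 540 of 579 developmental differences and 97 of 108 differences between 2 chains. Called probe sets of the receptor chains in the 12 comparisons numbered 6, against 2 with 1 fit per region, 15 with array quality weights, 3 without the 5 dim or displaced arrays, 0 with 1 fit per comparison, 0 without both genotypes' arrays numbered 1, and 1 to 6 when single replicates were left out. The 14 region averages became 6 without the arrays numbered 1, and the 7 overall averages became 4 when probe sets with a mean under 5 were dropped, which removes 5 of the 10. The 9 interferon-stimulated genes of the P84 cerebellum became 1 with that filter, 0 with 1 fit per region or per comparison, and 5 to 11 without single replicates. Of these 9 the filter keeps *Ifi27* (mean 6.49) alone and drops the rest, so its count does not retest them. The 6 genes whose difference changed with age became 0 with 1 fit per region, 14 with array quality weights, and 0 to 8 without single replicates. They also became 0 with that filter, but it removes all 6, whose highest mean is 4.26 (*Ifit3*), and so cannot test them. The 4 differences between 2 chains that passed, 3 of them of *Il10rb* and *Ifngr1*, became 2 to 5 without single replicates.

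Some differences changed sign. For *Il10rb* 1429959_at the cortical and overall averages were -0.0038 and -0.017 without the arrays numbered 1, and -0.023 to 0.068 and -0.048 to 0.071 without single replicates. The overall average of *Ifngr1* was -0.0043 with array quality weights. The cerebellar difference between P84 and P1 was -0.10 with array quality weights, -0.052 without the 3 dim or the 5 doubted arrays and -0.11 to 0.20 without single replicates for *Il10rb* 1419455_at. For *Ifngr1* these were -0.10, -0.10 and -0.046 to 0.10, and for *Ifnar2* 1451462_a_at -0.066, -0.11 and -0.10 to 0.27. In the cerebral cortex *Ifngr2* minus *Ifngr1*, at 0.50 over all arrays, was -0.030 to 0.84 and *Ifnar1* minus *Ifnar2* -0.26 to 0.15 without single replicates. The cause was not tested.

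With the replicate number within age as a replicate block, the counts for the 12 comparisons, region averages, overall averages, region differences, age changes and development were 7, 15, 8, 0, 0 and 4, against 6, 14, 7, 0, 0 and 6; with 1 block over all ages and regions they were 8, 15, 8, 0, 0 and 7. Under the first block the *Ifngr2* 1423557_at average in the hippocampus was 1.13 with a limma adjusted p of 0.0116 and was called. Whether the numbers pair the arrays is unstated in the sources read. Deviations of same-numbered arrays from their group means correlated at -0.26 to 0.70 (median 0.18), over 0.1 in 23 of 36 pairs and in all 3 pairs of 2 of the 12 comparisons alone, and the values without a block are the ones reported. Probe sets near the array median, among them *Ifngr1*, are limited by signal over background.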
